A study of Mus musculus with 24 samples.

Results

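The distal ends of the control jaws, the parts nearest the tip, were compared between the lower jaw (mandible) and the upper jaw (maxilla) of mouse embryos at embryonic day 14.5. The comparison used the 3 arrays titled as control distal mandible and the 3 titled as control distal maxilla, 6 of 24 arrays in the study. The study mated Wnt1cre;Alk5fl/+ mice with Alk5fl/fl mice on a C57B6 background. Wnt1-Cre recombines in the neural crest, which gives the facial mesenchyme and skeleton, among others, but not skeletal muscle fibres, epithelium or endothelium. Alk5 (Tgfbr1) is a type I receptor for TGF-beta. Mutants were recognised by cleft palate and a calvarial defect. Controls were their littermates, and the labels do not say which of the parental alleles each control carried. Control proximal ends (3 mandible, 3 maxilla arrays) and mutant distal ends (3 and 3) served for comparison. The labels call the tissue distal bone, do not say whether a sample pooled embryos and give no embryo for any array. In the main analysis the spread behind each p-value was estimated per gene within 8 groups of all 24 arrays, mutant proximal ends included. That spread is not the spread of the 6 compared arrays alone, and with no embryo given it may be partly technical. A gene can thus fail to pass although its 6 arrays differ little within each jaw.

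The lower jaw and most of the upper jaw grow from the first pharyngeal arch. Endothelin signalling through its receptor turns on Dlx5 and Dlx6 and then Hand2 in the lower part of the arch, and cells without that signal take an upper jaw fate, in which genes such as Nr2f1 and Pou3f3 are used. The tip of the upper jaw also receives frontonasal mesenchyme and lies against the nose, with its ciliated respiratory lining and olfactory epithelium, and its skin bears the whisker follicles. The tip of the lower jaw holds Meckel's cartilage, the dentary bone, incisor germs and the front of the tongue and jaw musculature.

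Levels are log2 RMA signals, so a difference of 1 means 2-fold. A difference is the mandible mean minus the maxilla mean with its standard error from the limma fit, and it passed where the Benjamini-Hochberg adjusted p over 13942 genes was under 0.05. Each gene was read from 1 probe set. Levels under the filter level of an array (6.34 to 6.47 in these 6 arrays) were treated as background, and a fold against such a group is given as "at least", with the filter level put in place of lower values. Levels of different genes come from different probes and were not compared. In pieces of whole tissue, fewer cells of a type and less RNA per cell cannot be told apart.

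The array medians were 7.06 to 7.10. Maxilla array 3 stood apart from the other 5: its values were less spread (SD over probe sets 2.33 against 2.39 to 2.42), its limma array weight was 0.21 against 1.15 to 2.16, and its mean correlation with its own group was 0.9896, against 0.9919 to 0.9968. Values without it are given beside the results that rest on it. Arrays 1 of both jaws had Xist at 13.53 and 13.65, with the Y-linked Kdm5d at 3.97 and 4.0, and arrays 2 and 3 of both jaws had the reverse, so this split was balanced between the jaws. In the mutant distal groups arrays 1 and 3 of both jaws carried both Xist (11.15 to 12.79) and Kdm5d (8.85 to 9.79). Each control distal array was high in only 1 of the 2 genes. Whether these mutant arrays held RNA of more than 1 embryo was not tested. Tgfbr1, the targeted gene, stood at 11.92 to 12.27 in the control distal arrays and at 12.2 to 12.57 in the distal arrays labelled mutant. Where its probes lie relative to the deleted part is not given in the sources used here, so this does not check the mutant labels, on which each comparison with mutants rests.

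Of the 13942 genes, 2486 (17.8%) differed between the distal jaws. In the mandible 1167 (8.37%) were higher and in the maxilla 1319 (9.46%), and the median difference over all genes was 0.00. Without maxilla array 3 the counts were 703 and 1357. Without mandible array 2 or 3 the count higher in the mandible was 747 or 667. With a size of at least 1 as well, 253 genes (1.81%) were higher in the mandible and 447 (3.21%) in the maxilla. The mandible and maxilla arrays did not overlap in 34.0% of all genes, so a gap between them is no rarity. The 12 largest differences toward the mandible included Hand2 and 9 genes of muscle fibres. Those toward the maxilla included genes of nasal lining, olfactory placode, ciliated cells and skin. The smallest adjusted p belonged to Qrfpr, a receptor for an RFamide neuropeptide, at a mean of 7.16 in the mandible and 4.12 in the maxilla (difference 3.05 ± 0.12, adjusted p = 3.61e-12), which was named after its values were seen.

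**Figure D1:**
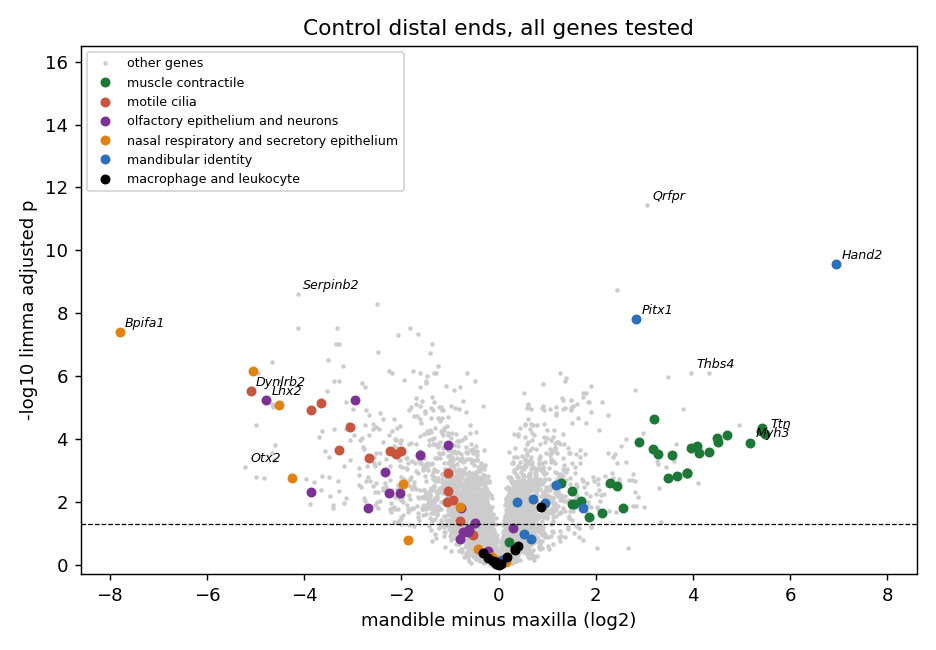
Each point is 1 of 13942 genes, with the log2 difference of mandible minus maxilla on the x axis and -log10 of the limma adjusted p on the y axis, and members of 6 gene lists are coloured. Muscle contractile genes lie to the right, cilia, olfactory and nasal genes to the left, and macrophage genes near 0; the dashed line marks an adjusted p of 0.05.

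Genes of lower jaw identity were higher in the distal mandible, led by Hand2, a basic helix-loop-helix factor of the lower arch. Hand2 stood at 12.59, 12.35 and 12.43 in the mandible arrays and at 5.11, 5.82 and 5.61 in the maxilla arrays, where every value lay under the filter level. The difference was 6.94 ± 0.36, adjusted p = 2.77e-10, at least 66.8-fold. The arrays of the jaws lay far apart, and without maxilla array 3 the difference was 6.99, adjusted p = 7.47e-09. Pitx1, a homeodomain factor needed for lower jaw and hindlimb form, stood at 10.69, 11.01 and 10.57 in the mandible and 7.78, 8.37 and 7.62 in the maxilla. It was 7.12-fold higher in the mandible (2.83 ± 0.19, adjusted p = 1.54e-08) and, unlike Hand2, stayed above the filter level in every maxilla array.

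The list of mandibular identity genes held 12 genes, of which Nkx3-2 and Gbx2 lay under the filter and 10 were tested. In the mandible 7 were higher and in the maxilla 0, with a median difference of 0.82 against 0.00 for all genes. Counts over tested members here and for the other lists are descriptions: a gene found in 1 group alone passes the filter only through that group. They are to be read beside the shares over all genes, 8.37% higher in the mandible and 9.46% in the maxilla. Gsc, a homeobox gene of the lower arch, stood at 9.32, 9.35 and 9.32 in the mandible and at 7.68, 8.49 and 6.62 in the maxilla (1.73 ± 0.48, adjusted p = 0.016). Its mandible values were nearly the same while its maxilla values ranged widely, and without maxilla array 3 it did not pass (1.24, adjusted p = 0.1). Dlx5, an endothelin-responsive homeobox gene, was at 11.27, 11.2 and 11.25 against 10.73, 10.54 and 10.34 (0.7 ± 0.17, adjusted p = 0.00834). Its partner Dlx6 was at 10.05, 9.82 and 9.94 against 9.14, 9.19 and 8.64 (0.95 ± 0.25, adjusted p = 0.0112), and without maxilla array 3 at 0.77, adjusted p = 0.0617. Both were well expressed in both jaws, with a difference far smaller than that of Hand2. Dlx6os1, the transcript that runs antisense to Dlx6, differed by 1.19 ± 0.25, adjusted p = 0.00288, and the array reading cannot be assumed free of its overlapping partner. Plagl1, a zinc finger gene, differed by 0.37 ± 0.09, adjusted p = 0.00975. The 3 members that did not pass were Hand1 (0.08 ± 0.11, adjusted p = 0.697), Dlx3 (0.53 ± 0.22, adjusted p = 0.103) and Dlx4 (0.66 ± 0.3, adjusted p = 0.154). For Hand1 the arrays of the jaws overlapped.

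**Figure D2:**
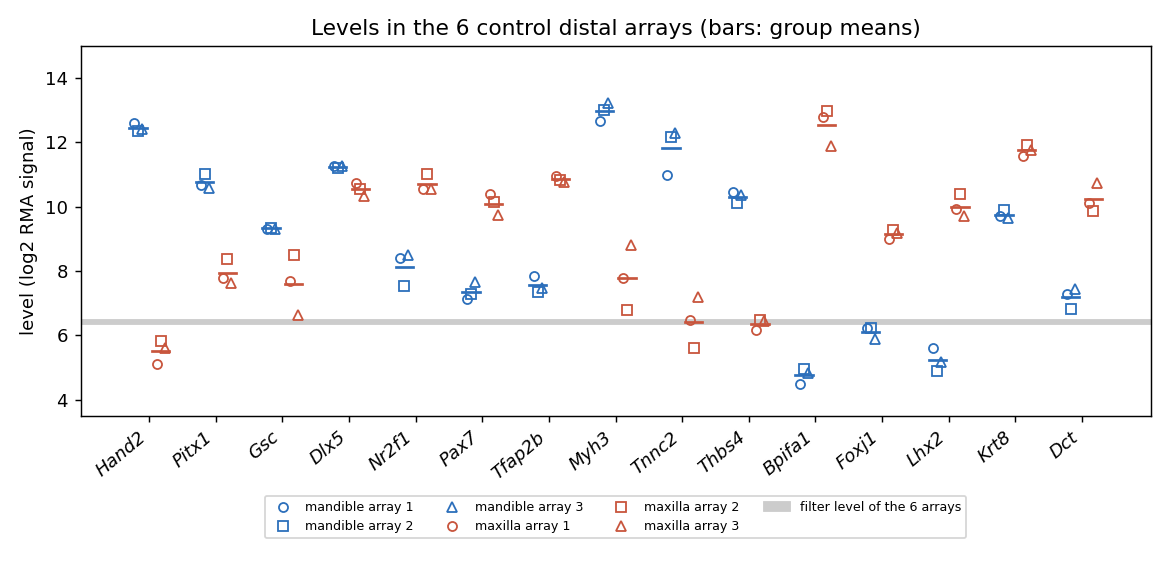
Level (log2 RMA signal, y axis) of 15 genes in each of the 6 control distal arrays, with mandible arrays in blue, maxilla arrays in red, a bar at each group mean and a grey band at the filter level. Hand2, Thbs4, Bpifa1, Foxj1 and Lhx2 lie at or under the band in 1 jaw, while Dlx5 and Krt8 are well above it in both.

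The endothelin pathway itself showed small differences in both directions. Of 8 tested members 2 were higher in the mandible and 2 in the maxilla (median -0.01), and the receptor gene Ednra was not analysed here. The ligand Edn1, whose signal sets lower jaw fate, stood at 6.79, 6.56 and 6.58 against 6.88, 6.83 and 6.83 and did not pass (-0.21 ± 0.17, adjusted p = 0.459). Edn2, another ligand, was higher in the maxilla (7.4, 7.64 and 7.48 against 8.42, 8.24 and 8.64, difference -0.92 ± 0.17, adjusted p = 0.000712), as was Ece1, the enzyme that cuts the ligand to its active form (-0.52 ± 0.12, adjusted p = 0.00634). Edn3, the ligand used by migrating melanoblasts, was higher in the mandible (0.48 ± 0.14, adjusted p = 0.0232), and so was Mef2c, a factor downstream of the receptor in the arch and also a muscle gene (0.67 ± 0.22, adjusted p = 0.0425). These last calls were fragile: Edn3 was lost when any of 5 arrays was left out (mandible 1, 2 or 3, maxilla 1 or 3), and Mef2c when mandible 1, 2 or 3 or maxilla 2 or 3 was. The receptor Ednrb (-0.05 ± 0.13, adjusted p = 0.852) and the G protein subunits Gnaq (0.04 ± 0.1, adjusted p = 0.86) and Gna11 (0.18 ± 0.09, adjusted p = 0.184) did not pass.

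Genes listed for the maxilla and upper jaw split evenly. Of 12 tested members 4 were higher in the maxilla and 4 in the mandible (median -0.32), so the list as a whole did not follow its name. Nr2f1, an orphan nuclear receptor of the upper arch, stood at 8.39, 7.53 and 8.49 in the mandible and 10.56, 11.03 and 10.56 in the maxilla, 5.97-fold higher there (-2.58 ± 0.34, adjusted p = 3.37e-05). Irx3 (-1.62 ± 0.15, adjusted p = 7.8e-07) and Irx5 (-1.3 ± 0.18, adjusted p = 4.52e-05), neighbouring Iroquois homeobox genes, were also higher in the maxilla, with no overlap between the arrays. Pou3f3, a POU factor of the upper arch, stood at 10.02, 9.43 and 9.91 against 11.3, 11.45 and 10.73 (-1.37 ± 0.37, adjusted p = 0.0145) and lost its call without mandible array 2 or without maxilla array 2. The 4 members higher in the mandible were homeobox genes of arch and tooth mesenchyme. Dlx1 was at 8.46, 8.62 and 8.72 in the mandible and 6.52, 5.91 and 6.34 in the maxilla (2.35 ± 0.4, adjusted p = 0.000386). Dlx2 was at 10.11, 9.92 and 10.07 against 8.51, 6.83 and 8.03 (2.24 ± 0.48, adjusted p = 0.00297). Lhx8 was at 11.26, 11.51 and 11.18 against 9.26, 7.12 and 8.97 (2.86 ± 0.7, adjusted p = 0.00712), with maxilla array 2 the lowest of the 6 in both Dlx2 and Lhx8. Lhx6 (1.79 ± 0.52, adjusted p = 0.0199) lost its call without mandible array 2, without maxilla array 2 and with the mean of its probe sets. Foxl2 (-0.75 ± 0.3, adjusted p = 0.0921), Nr2f2 (-0.43 ± 0.2, adjusted p = 0.166), Meis2 (-0.21 ± 0.15, adjusted p = 0.41) and Jag1 (0.0 ± 0.11, adjusted p = 0.997) did not pass.

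Frontonasal mesenchyme genes leaned to the maxilla, with 4 of 9 tested members higher there and 1 higher in the mandible (median -0.51). Tfap2b, an AP-2 factor of neural crest, stood at 7.85, 7.35 and 7.47 in the mandible and 10.95, 10.84 and 10.76 in the maxilla, 9.81-fold higher in the maxilla (-3.29 ± 0.26, adjusted p = 9.64e-08). Pax7, a paired-box gene of nasal mesenchyme and of muscle precursors, stood at 7.14, 7.28 and 7.65 against 10.39, 10.16 and 9.73 (-2.74 ± 0.36, adjusted p = 3.68e-05). For Pax7 the maxilla was higher while the muscle genes described next were lower there. Six2 (-1.22 ± 0.2, adjusted p = 0.000287) and Tfap2a (-1.21 ± 0.2, adjusted p = 0.000415) followed in the same direction. Mab21l2, which is needed for eye and face growth, went the other way (2.05 ± 0.41, adjusted p = 0.00186). Of the palate list 4 of 11 tested members were higher in the mandible and 0 in the maxilla, and 0 passed without maxilla array 3. They were Tbx22 (8.96, 8.59 and 8.34 against 6.69, 7.17 and 5.74, 2.09 ± 0.53, adjusted p = 0.00964), Meox2 (1.53 ± 0.44, adjusted p = 0.0196), Barx1 (1.19 ± 0.36, adjusted p = 0.0274) and Pax9 (0.56 ± 0.16, adjusted p = 0.0181), whose adjusted p values without that array were 0.0567, 0.0641, 0.0885 and 0.0993. Barx1, Meox2 and Pax9 also lost their calls without other single arrays (Barx1 without mandible 1, 2 or 3 or maxilla 1, Meox2 without mandible 1 or 3, Pax9 without mandible 1 or 2). Hox genes pattern the arches behind the first. None of the 4 tested passed in limma with all arrays, and 6 others lay under the filter. The largest difference was that of Hoxd1 (4.69, 4.3 and 4.86 against 5.47, 6.1 and 6.43, -1.38 ± 0.67, adjusted p = 0.178), whose means lay under the filter level in both jaws and which passed toward the maxilla in a fit to the 6 arrays alone. Hoxa5 (-0.26 ± 0.13, adjusted p = 0.202) passed toward the maxilla without maxilla array 1.

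Skeletal muscle genes were higher in the distal mandible. All but 1 of the 31 contractile and fibre genes listed were higher in the mandible (30), 0 were higher in the maxilla, and the median difference was 3.48. The exception was Tpm2, a tropomyosin that other contractile cells share (0.22 ± 0.11, adjusted p = 0.182). Without maxilla array 3 the counts were 30 and 0. Myh3, embryonic myosin heavy chain, stood at 12.67, 13.02 and 13.21 in the mandible and 7.77, 6.78 and 8.82 in the maxilla, 36.2-fold higher in the mandible (5.18 ± 0.78, adjusted p = 0.000132). Myh8, perinatal myosin heavy chain, was at 9.48, 10.09 and 10.54 against 4.21, 4.83 and 4.79 (5.42 ± 0.73, adjusted p = 4.32e-05, at least 12.5-fold). Ttn, the giant spring protein of the sarcomere, was at 11.13, 11.32 and 11.67 against 6.19, 4.87 and 6.57 (5.49 ± 0.78, adjusted p = 6.7e-05). In all 3 genes mandible array 1 was the lowest mandible array and maxilla array 2 or 1 the lowest maxilla array, with a wide gap between the jaws. Tnnc2, fast troponin C, was at 10.99, 12.16 and 12.29 against 6.48, 5.6 and 7.2 (5.39 ± 0.75, adjusted p = 5.74e-05). Myom2 (4.71 ± 0.67, adjusted p = 7.48e-05), Myl1 (4.51 ± 0.67, adjusted p = 0.000121), Acta1 (4.5 ± 0.65, adjusted p = 9.1e-05), Mylpf (4.34 ± 0.7, adjusted p = 0.000257), Myl4 (4.13 ± 0.67, adjusted p = 0.000278) and Ckm (3.19 ± 0.41, adjusted p = 2.27e-05), all fibre proteins or enzymes, followed. Another 2 of the 12 largest are not in the list: Tceal7 (4.95 ± 0.66, adjusted p = 3.68e-05) and Atp1b4 (4.34 ± 0.41, adjusted p = 8.05e-07), the latter a sodium pump beta-like protein of muscle nuclei. The mean level of the list was 9.78, 10.42 and 10.67 in the mandible arrays and 6.94, 6.69 and 7.39 in the maxilla arrays.

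Regulators of muscle formation were tested as a list of their own. Of 13 tested, 2 were higher in the mandible, with a median of 0.88: Myog, the factor of differentiating myoblasts (10.49, 10.83 and 11.0 against 8.09, 7.83 and 9.13, 2.42 ± 0.7, adjusted p = 0.0205), and Cdh15, muscle cadherin (1.63 ± 0.41, adjusted p = 0.00858). Myog lost its call without mandible array 2 or 3 or maxilla array 1 or 2. Myf5 (1.65 ± 0.72, adjusted p = 0.129) and Myod1 (1.36 ± 0.6, adjusted p = 0.132), which commit cells to muscle, and Mymk, the fusion protein (1.42 ± 0.51, adjusted p = 0.0617), did not pass, although their mandible arrays all lay above their maxilla arrays. Pax7 was the member higher in the maxilla. Whether regulators and fibre genes differ in their response was not tested. With array weights 7 regulators were called in the mandible, and with the replicate block or only the 6 arrays 6 were. Tendon genes had 6 of 12 higher in the mandible, 4 without maxilla array 3. Thbs4, a matrix protein where muscle meets tendon, stood at 10.47, 10.13 and 10.35 in the mandible and 6.16, 6.47 and 6.45 in the maxilla, at least 14.7-fold higher (3.96 ± 0.37, adjusted p = 8.05e-07). Mkx (1.67 ± 0.27, adjusted p = 0.000227) and Tnmd (1.48 ± 0.3, adjusted p = 0.00178), a tendon transcription factor and a tendon membrane protein, were also higher in the mandible. Htra3, a secreted protease, was higher there (1.83 ± 0.21, adjusted p = 6.43e-06), though 1 of its 3 probe sets had the opposite sign. The member higher in the maxilla was Col14a1 (-1.26 ± 0.31, adjusted p = 0.00802), a fibril-associated collagen that dermis also makes.

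The upstream regions of muscle genes are shown because the list moved as a block. In the RefSeq promoter table (GRCm38.p6, 250 bases before to 50 after each gene's start), 27 of 31 listed muscle genes were found. Where the table held several promoters for a gene, only the first was used, so the 27025 promoters are 1 per gene. Other starts were not searched. The E-box CAGCTG, a form that myogenic factors bind, was in 14 of the 27 (51.9%), against 4353 of 27025 promoters in the table (16.1%) and 1 of 19 promoters of motile cilia genes (5.26%). Of the other letters searched on both strands, CAGGTG was in 7 muscle promoters (25.9%, all promoters 20.0%) and GGAATG in 7 (25.9%, all 14.6%). TATTTATA was in 2 (7.41%, all 1.77%), and a longer form of the MEF2 site that contains it (all 0.163%) was in 0. Only 1 exact form of the CArG box was searched, and it was in 0 (all 0.0777%). Other forms of that box were not counted, and the Acta1 promoter printed below holds another form. The palindromic CAGCTG reads alike on both strands. Myl1 and Acta1 are printed with CAGCTG in capitals, 5′ to 3′ on the gene's strand (minus for both), at chr1:66945007-66945306 and chr8:123894726-123895025, where the match begins 224 and 221 bases before the start. A match is a run of letters and not a measured binding site.
Myl1: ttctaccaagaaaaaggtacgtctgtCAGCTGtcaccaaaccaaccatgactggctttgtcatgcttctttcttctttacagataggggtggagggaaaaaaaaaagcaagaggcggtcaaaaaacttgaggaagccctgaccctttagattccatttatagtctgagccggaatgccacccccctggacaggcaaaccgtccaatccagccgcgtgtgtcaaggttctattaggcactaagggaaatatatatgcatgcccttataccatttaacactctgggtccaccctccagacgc
Acta1: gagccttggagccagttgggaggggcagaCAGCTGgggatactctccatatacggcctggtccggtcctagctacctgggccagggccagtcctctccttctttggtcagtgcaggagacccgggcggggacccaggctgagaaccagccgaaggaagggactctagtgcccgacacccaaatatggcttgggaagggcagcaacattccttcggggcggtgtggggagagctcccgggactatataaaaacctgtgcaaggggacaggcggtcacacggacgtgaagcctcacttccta

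Genes of the nasal respiratory lining were higher in the distal maxilla. Bpifa1, a secreted airway defence protein, stood at 4.5, 4.94 and 4.83 in the mandible, all under the filter level, and at 12.79, 12.98 and 11.88 in the maxilla. It was at least 72.2-fold higher in the maxilla (-7.8 ± 0.58, adjusted p = 3.97e-08), the largest difference of all genes tested, and -8.13, adjusted p = 3.49e-07 without maxilla array 3. Of 11 tested members of the list 6 were higher in the maxilla and 0 in the mandible (median -1.86). Aldh1a1, a retinaldehyde dehydrogenase, was at 5.57, 5.59 and 6.05 against 10.72, 10.48 and 11.17 (-5.05 ± 0.47, adjusted p = 7.09e-07, at least 21.3-fold). Reg3g, a secreted antibacterial lectin, was at 5.5, 5.79 and 5.52 against 10.23, 10.33 and 9.8 (-4.52 ± 0.52, adjusted p = 8.44e-06). Sult1c1 (-4.25 ± 0.85, adjusted p = 0.00176), a sulfotransferase, and Agr2 (-1.96 ± 0.42, adjusted p = 0.00273), a protein of mucus-making cells, were higher in the maxilla as well. The related sulfotransferases Sult1d1 (-5.0 ± 0.99, adjusted p = 0.00164) and Sult1e1 (-4.83 ± 0.97, adjusted p = 0.0018) were among the 12 largest differences. So was Foxa1, a pioneer factor of airway epithelium (6.8, 6.83 and 6.8 against 11.56, 11.66 and 11.2, -4.66 ± 0.54, adjusted p = 7.49e-06).

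Genes of motile cilia were higher in the maxilla too. Of 16 tested members 14 were higher in the maxilla and 0 in the mandible (median -2.06), and 13 passed without maxilla array 3. A filter at the 60th percentile left 8 of the 14, since it removed dim members. Foxj1, the master regulator of motile cilia, stood at 6.22, 6.24 and 5.87 in the mandible, under the filter level, and at 9.01, 9.28 and 9.18 in the maxilla (-3.05 ± 0.41, adjusted p = 4.24e-05, at least 6.88-fold). Dynlrb2, a dynein light chain, was at 5.67, 5.51 and 5.49 against 10.39, 10.51 and 11.09 (-5.1 ± 0.54, adjusted p = 3.01e-06). Deup1, which builds the many basal bodies of a multiciliated cell, was at 5.41, 4.95 and 5.29 against 8.66, 9.05 and 9.51 (-3.86 ± 0.47, adjusted p = 1.18e-05). All 3 were at background in the mandible and well above it in every maxilla array. Ccno (-3.65 ± 0.42, adjusted p = 7.15e-06), also of basal body amplification, and Pifo (-3.29 ± 0.52, adjusted p = 0.000216) followed. Dnah11 (-0.04 ± 0.11, adjusted p = 0.836), a dynein heavy chain, and Tmem212 (-0.52 ± 0.22, adjusted p = 0.113) did not pass. Svopl (-4.66 ± 0.76, adjusted p = 0.000278), a transporter-like protein outside the list, was among the 12 largest differences.

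Promoters of 19 of the 22 listed cilia genes were in the RefSeq table, and 2 are printed because most of the 16 tested members moved together. The shares below also count genes that were not tested. Among those with GTTGCC, Ccdc113 and Tekt4 lay under the filter and Mcidas was not analysed. Dnah5, with GTTGCTA, also lay under the filter. GTTGCC, a core of the X-box that RFX factors read, was in 9 of the 19 (47.4%), against 3423 of 27025 promoters (12.7%) and 6 of 27 muscle promoters (22.2%). GTTGCTA was in 5 (26.3%, all 3.81%), ATGGCAAC in 2 (10.5%, all 1.32%) and a longer X-box of 10 bases in 1 (5.26%, all 0.551%). Both strands were searched, and the last 2 hold GTTGCC on 1 strand. Of the muscle motifs CAGGTG was in 5 cilia promoters (26.3%), GGAATG in 1 and TATTTATA in 0. Dynlrb2 lies on the plus strand at chr8:116504765-116505064 and Deup1 on the minus strand at chr9:15627797-15628096. Capitals mark the match, which begins 51 and 79 bases before the start and reads GGCAAC on the printed strand of Deup1.
Dynlrb2: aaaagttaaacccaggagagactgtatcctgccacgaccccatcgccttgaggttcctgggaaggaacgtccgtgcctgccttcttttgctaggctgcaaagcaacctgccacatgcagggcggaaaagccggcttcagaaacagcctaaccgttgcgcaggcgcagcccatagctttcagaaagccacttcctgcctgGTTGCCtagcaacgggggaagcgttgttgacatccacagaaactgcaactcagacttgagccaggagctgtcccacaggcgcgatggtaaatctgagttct
Deup1: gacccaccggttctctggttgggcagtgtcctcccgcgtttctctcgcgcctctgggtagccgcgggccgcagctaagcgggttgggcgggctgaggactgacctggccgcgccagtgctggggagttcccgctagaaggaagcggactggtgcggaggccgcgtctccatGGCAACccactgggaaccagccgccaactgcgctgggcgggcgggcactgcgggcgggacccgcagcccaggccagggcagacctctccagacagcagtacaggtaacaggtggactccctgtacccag

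Olfactory and neuronal genes were also higher in the maxilla. Of 17 tested olfactory genes 11 were higher there and 0 in the mandible (median -1.04). Lhx2, a LIM homeobox gene of olfactory progenitors and of hair follicle stem cells, stood at 5.59, 4.89 and 5.18 in the mandible and 9.93, 10.38 and 9.7 in the maxilla (-4.78 ± 0.54, adjusted p = 5.73e-06, at least 12.4-fold). Emx2, a homeobox gene of olfactory epithelium, was at 7.78, 6.0 and 7.69 against 10.11, 10.3 and 9.9 (-2.95 ± 0.33, adjusted p = 5.73e-06). Fezf1, needed for olfactory neuron identity, was at 5.02, 5.35 and 5.21 against 10.28, 10.1 and 10.17 (-4.99 ± 0.66, adjusted p = 3.56e-05). The jaws did not overlap in any of these, and mandible array 2 was the lowest for Lhx2 and Emx2. Six3 (-1.61 ± 0.27, adjusted p = 0.000324) and Gap43 (-1.04 ± 0.16, adjusted p = 0.00015), the latter a growth cone protein of young neurons, were higher in the maxilla too. Pax6, an eye and nose master gene, was higher by its brightest probe set (-2.33 ± 0.44, adjusted p = 0.00116), and 3 of its 5 probe sets had that sign. Omp, the marker of mature olfactory neurons, did not pass (7.12, 7.21 and 7.08 against 7.71, 8.01 and 7.87, -0.73 ± 0.29, adjusted p = 0.0918).

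Of 10 general neuron genes 7 were higher in the maxilla and 0 in the mandible (median -1.96). Stmn3, a microtubule regulator of neurons, stood at 6.74, 6.6 and 8.24 against 10.62, 11.11 and 10.29 (-3.48 ± 0.58, adjusted p = 0.000363), with mandible array 3 the highest of its group. Stmn2 (-1.94 ± 0.39, adjusted p = 0.00183), Elavl4 (-2.72 ± 0.56, adjusted p = 0.00219), Snap25 (-2.37 ± 0.52, adjusted p = 0.0037) and Tubb3 (-2.01 ± 0.5, adjusted p = 0.00862) had the same direction. The neurofilament gene Nefl did not pass and had the opposite sign, with values of 9.11, 9.05 and 9.24 in the mandible and 7.89, 7.98 and 7.72 in the maxilla (1.27 ± 0.61, adjusted p = 0.175). In a fit to the 6 arrays alone Nefl, Nefm and Isl1 were called higher in the mandible, and with array weights Isl1 was. Glial genes were higher in the maxilla in 4 of 8 cases and in the mandible in 0 (median -0.4). They were Fabp7, of olfactory and peripheral glia (8.62, 8.21 and 8.88 against 9.78, 12.06 and 11.4, -2.51 ± 0.64, adjusted p = 0.00975), Mbp (-0.94 ± 0.21, adjusted p = 0.00386), Sox10 (-0.74 ± 0.16, adjusted p = 0.00269) and Erbb3 (-0.51 ± 0.12, adjusted p = 0.00594). Fabp7 lost its call without maxilla array 2, and Mbp with the mean of its probe sets.

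Brain and eye genes gave 4 of 8 higher in the maxilla and 0 in the mandible (median -0.85). Otx2, a head homeobox gene that olfactory epithelium also uses, stood at 4.46, 4.19 and 4.18 against 9.66, 9.82 and 8.99 (-5.22 ± 0.95, adjusted p = 0.000794, at least 8.68-fold). The other three were pigment cell genes. Dct (7.28, 6.81 and 7.45 against 10.1, 9.87 and 10.73, -3.05 ± 0.53, adjusted p = 0.000475), Pmel (-2.57 ± 0.45, adjusted p = 0.000564) and Tyr (-1.53 ± 0.34, adjusted p = 0.00407) make or scaffold melanin in melanocytes and in the eye's pigment layer. Tyrp1, another pigment cell gene of the list, lay under the filter. Retina, lens and cortex genes lay under the filter (Rax, Cryaa, Crygb, Neurod6 and Tbr1 among them) or did not pass. Salivary gland genes were mostly under the filter, and of 2 tested Aqp5, a water channel of glands, was higher in the maxilla (-1.21 ± 0.34, adjusted p = 0.0173), a call lost without mandible array 1 or maxilla array 2.

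Epithelial genes leaned to the maxilla unevenly. Of 21 tested oral and skin genes 10 were higher there, 1 was higher in the mandible, and the median was -0.8. Without maxilla array 3, which had the highest list mean (11.37, 11.01 and 11.94 in the maxilla arrays, 10.71, 11.05 and 10.82 in the mandible arrays), 6 were higher in the maxilla. Krt8, a keratin of simple epithelium, stood at 9.7, 9.91 and 9.65 against 11.59, 11.91 and 11.75 (-1.99 ± 0.36, adjusted p = 0.00075). Its pairing partner Krt18 (-1.54 ± 0.37, adjusted p = 0.00715) and Krt19 (-1.73 ± 0.36, adjusted p = 0.00236) were higher in the maxilla, as were the splicing factor Esrp1 (-0.83 ± 0.17, adjusted p = 0.00176) and Lgals7 (-1.69 ± 0.37, adjusted p = 0.00376). The basal keratins Krt5 (-0.16 ± 0.41, adjusted p = 0.848) and Krt14 (0.1 ± 0.42, adjusted p = 0.918) and the basal factor Trp63 (-0.16 ± 0.32, adjusted p = 0.808) did not pass, and their arrays overlapped between the jaws. The member higher in the mandible was Krt13, a keratin of the oral mucosa and tongue, at 9.25, 10.91 and 10.05 against 7.32, 5.86 and 8.76 (2.76 ± 0.74, adjusted p = 0.0137). It lost its call without mandible array 2 or maxilla array 2, and it was named, like Krt5, Krt14 and Trp63, after the values were seen.

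Genes of the outer skin layers were among the largest differences. Serpinb7, a serpin of keratinocytes, stood at 5.17, 4.53 and 5.6 in the mandible and 9.96, 9.96 and 10.25 in the maxilla (-4.95 ± 0.46, adjusted p = 7.8e-07). Serpinb11, a neighbouring serpin, was at 6.61, 7.02 and 6.08 against 11.2, 10.85 and 11.66 (-4.67 ± 0.41, adjusted p = 3.48e-07). Serpinb2 was at 4.45, 4.58 and 4.5 against 8.86, 7.81 and 9.23 (-4.13 ± 0.25, adjusted p = 2.51e-09). The mandible was at or near background for Serpinb2 and Serpinb7 and the maxilla clearly above. Of 13 tested follicle genes 4 were higher in the maxilla: Lhx2, Sox21 (-1.39 ± 0.17, adjusted p = 1.06e-05), Dkk4, a Wnt antagonist made in placodes (6.71, 5.86 and 6.14 against 8.13, 8.35 and 8.82, -2.2 ± 0.31, adjusted p = 5.74e-05), and the ectodysplasin receptor Edar (-0.66 ± 0.17, adjusted p = 0.0112). Corin, a dermal papilla protease, was higher in the mandible (1.25 ± 0.24, adjusted p = 0.00142). The list median was -0.26, and with array weights 7 members were higher in the maxilla. In the proximal control jaws 7 of the 13 were higher in the mandible and 2 in the maxilla (median 0.46). Tooth germ genes had 5 of 20 higher in the mandible and 2 in the maxilla (median 0.43). Lhx8, Lhx6, Pax9, Barx1 and Fgf3 (0.69 ± 0.17, adjusted p = 0.00715) made up the first (2 or 3 genes without mandible array 1 or 2 or maxilla array 3, 8 or 9 with array weights, the replicate block or only the 6 arrays), and Edar and Lef1 (-0.36 ± 0.12, adjusted p = 0.0345, named after its value was seen) the second. Lef1 lost its call without mandible array 1, 2 or 3 or maxilla array 1 or 3.

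**Figure D3:**
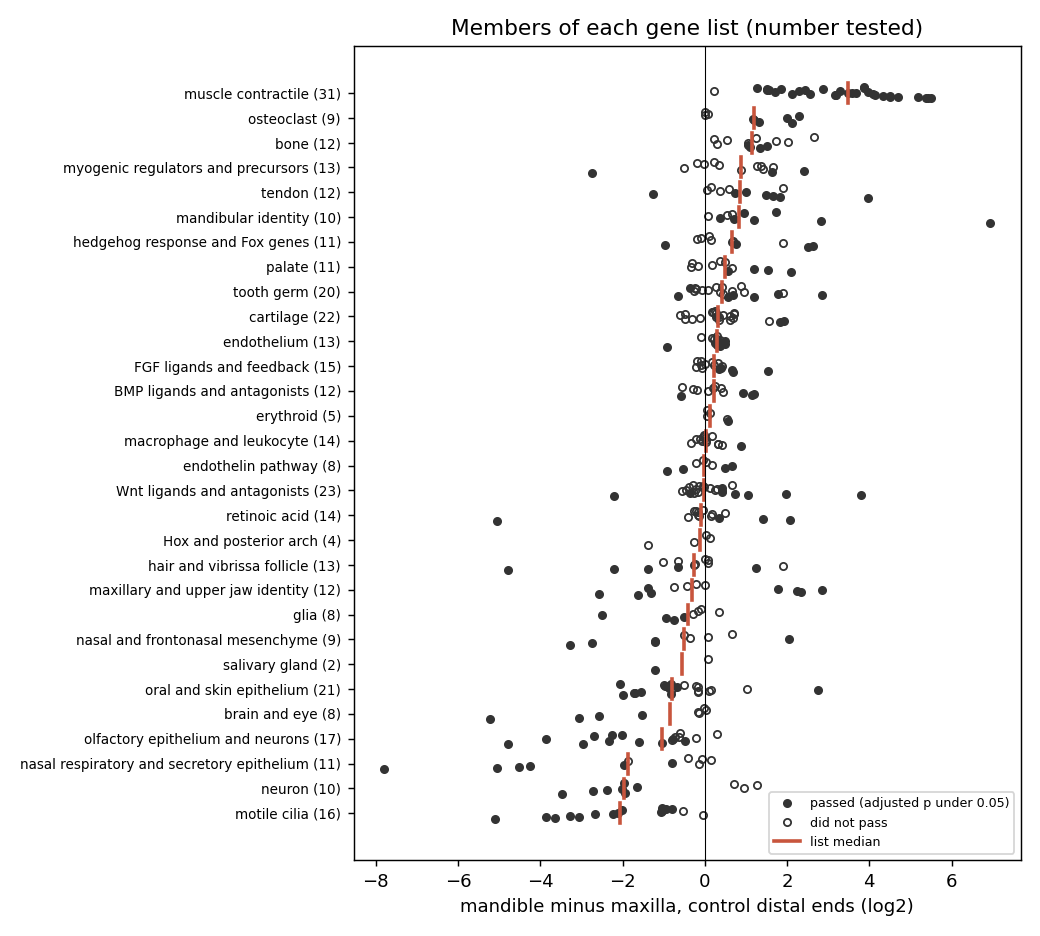
Difference of mandible minus maxilla in the control distal ends (log2, x axis) for each tested member of 30 gene lists, with filled points for genes that passed and a red line at each list's median. Muscle contractile genes lie right of 0 with a median of 3.48, motile cilia genes lie left of or near 0 with a median of -2.06, and upper jaw identity genes spread to both sides.

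Bone and osteoclast genes leaned to the mandible and cartilage genes did not. Of 12 tested bone genes 4 were higher in the mandible and 0 in the maxilla (median 1.16). That count was 1 without maxilla array 2 and 2 without mandible array 3, and it was 10 with array weights or only the 6 arrays and 9 with the replicate block. Sp7, the osteoblast transcription factor, stood at 10.59, 10.66 and 10.77 against 9.84, 9.28 and 9.63 (1.09 ± 0.28, adjusted p = 0.00976). Smpd3 (1.34 ± 0.34, adjusted p = 0.00934), Omd (1.51 ± 0.41, adjusted p = 0.0149) and Alpl, the phosphatase of mineralising matrix (1.04 ± 0.31, adjusted p = 0.0229), were also higher in the mandible. Smpd3 and Omd lost their calls without maxilla array 2, Omd also without mandible array 3, and Alpl without mandible array 2 or 3 or maxilla array 2. Maxilla array 2 had the lowest bone list mean (10.82, 9.81 and 11.02 in the maxilla arrays, 11.59, 11.86 and 11.89 in the mandible). Sparc, an abundant matrix protein of bone and other mesenchyme, did not pass (0.3 ± 0.13, adjusted p = 0.123).

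Of 9 osteoclast genes 6 were higher in the mandible and 0 in the maxilla (median 1.2). Atp6v0d2, a proton pump subunit of bone-resorbing cells, stood at 8.94, 9.04 and 9.02 against 6.97, 6.3 and 7.36 (2.12 ± 0.24, adjusted p = 6.69e-06). Dcstamp (1.2 ± 0.18, adjusted p = 0.000128) and Ocstamp (1.33 ± 0.19, adjusted p = 6.9e-05), which act in osteoclast fusion, and the proteases Ctsk (1.17 ± 0.27, adjusted p = 0.00515) and Mmp9 (2.0 ± 0.47, adjusted p = 0.00553) had the same direction. For Ocstamp 2 of the 3 mandible values lay under the filter level. Macrophage genes gave 1 of 14 higher in the mandible (median 0.02). That gene was Cd68, a lysosomal protein that osteoclasts also carry (0.87 ± 0.23, adjusted p = 0.0144), and it lost its call without mandible array 2 or 3 or maxilla array 2. Csf1r, the receptor both cell types need, did not pass (0.33 ± 0.2, adjusted p = 0.307).

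Few cartilage genes passed, and how many did depended on single arrays. With all arrays 2 of 22 were higher in the mandible and 0 in the maxilla (median 0.32). Without maxilla array 3 the counts were 0 and 0, and the median was -0.25. Without maxilla array 2 the count in the mandible was 4, without any 1 of the other 4 arrays it was 1, and with array weights 2 members were called in the maxilla. The list mean was 10.83, 10.67 and 10.83 in the mandible arrays and 10.76, 11.28 and 9.02 in the maxilla arrays. Col2a1, the main cartilage collagen, stood at 13.57, 13.47 and 13.5 against 13.38, 13.8 and 11.3 (0.69 ± 0.58, adjusted p = 0.486). Acan, the main proteoglycan of cartilage, stood at 10.58, 10.26 and 10.58 against 10.56, 11.14 and 8.39 (0.45 ± 0.62, adjusted p = 0.702). Both had maxilla arrays 1 and 2 beside or above the mandible and array 3 far below. The 2 that passed were C1qtnf3 (1.83 ± 0.47, adjusted p = 0.0101, 1.29, adjusted p = 0.0683 without maxilla array 3) and Comp (1.93 ± 0.61, adjusted p = 0.033, 1.05, adjusted p = 0.215), a matrix protein shared with tendon. Comp also lost its call without mandible array 1, 2 or 3 or maxilla array 1.

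Vessel and blood genes differed little in size. Of 13 endothelial genes 6 were higher in the mandible and 1 in the maxilla (median 0.3). Without maxilla array 3 the counts were 1 and 1, and the first was 2, 1 or 3 without mandible array 2, mandible array 3 or maxilla array 2 and 3 with only the 6 arrays. Kdr and Pecam1, a VEGF receptor and a junction protein, differed by 0.37 ± 0.1, adjusted p = 0.0108 and by 0.5 ± 0.14, adjusted p = 0.0178. Without maxilla array 3 they stood at 0.28, adjusted p = 0.06 and 0.4, adjusted p = 0.0873, and Pecam1 was also lost without mandible array 2 or 3 or maxilla array 1. Erg, an endothelial factor that cartilage also expresses, was higher in the maxilla (9.15, 9.04 and 9.03 against 10.05, 10.32 and 9.6, -0.91 ± 0.17, adjusted p = 0.000988). Of 5 erythroid genes Alas2, a heme enzyme, passed (0.57 ± 0.18, adjusted p = 0.033), and it was lost without mandible array 1, 2 or 3 or maxilla array 3. The embryonic globin gene Hbb-y stood at 14.12, 14.22 and 13.58 against 14.0, 14.23 and 13.29 (0.13 ± 0.26, adjusted p = 0.796), and array 3 was the lowest in both jaws.

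**Figure D4:**
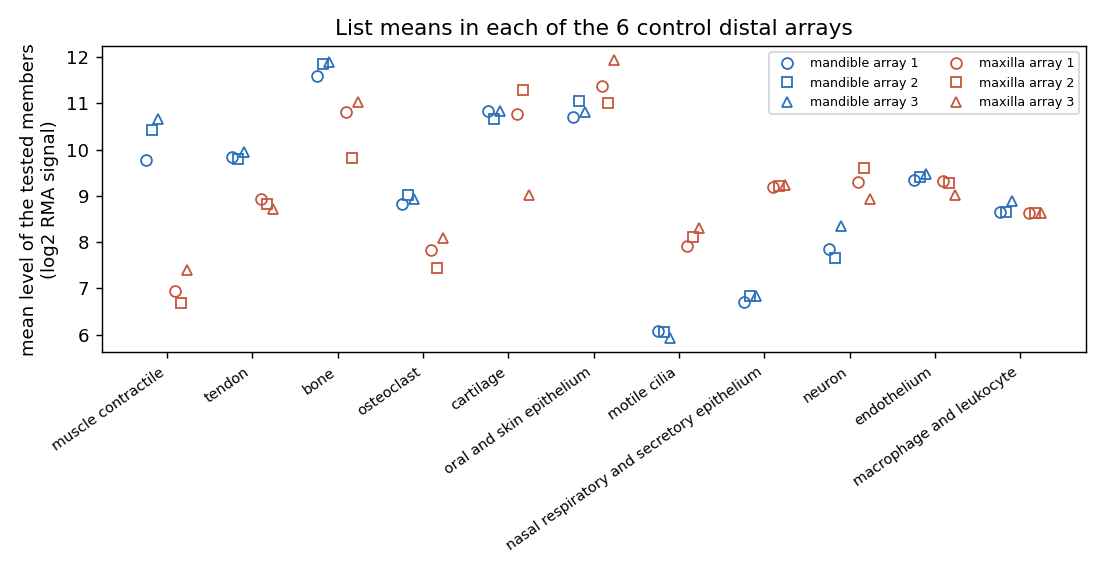
Mean level (log2 RMA signal, y axis) over the tested members of 11 gene lists in each of the 6 control distal arrays, mandible in blue and maxilla in red, with 1 symbol per array number. Muscle, cilia and nasal lining separate the jaws in every array, while the cartilage mean of maxilla array 3 (9.02) lies below the other 5.

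Signalling genes were described by pathway, with counts to be read beside the 8.37% (mandible) and 9.46% (maxilla) of all genes. Retinoic acid genes had 3 of 14 higher in the mandible and 1 in the maxilla (median -0.1). The count in the maxilla was 2 without maxilla array 1, with quantile normalization or with only the 6 arrays, and 3 with array weights. Cyp26a1, which breaks retinoic acid down, stood at 9.19, 9.31 and 8.99 against 7.27, 6.81 and 7.25 and was higher in the mandible (2.06 ± 0.28, adjusted p = 5.05e-05). Aldh1a1, an enzyme that makes retinoic acid, was higher in the maxilla. Aldh1a2 (-0.15 ± 0.16, adjusted p = 0.594) and Aldh1a3 (0.16 ± 0.33, adjusted p = 0.799), which also make it, did not pass. Both were named after their values were seen. Rbp4, the retinol carrier, was higher in the mandible (1.42 ± 0.22, adjusted p = 0.000195), and so was Rdh10, a retinol dehydrogenase (0.34 ± 0.11, adjusted p = 0.0311), a call lost without mandible array 2 or 3 or maxilla array 3.

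Among hedgehog targets and Fox genes 3 of 11 were higher in the mandible and 1 in the maxilla (median 0.66), with 5 to 7 higher in the mandible under array weights, only the 6 arrays or the replicate block. Foxf1, a mesenchymal target of hedgehog, stood at 10.38, 10.47 and 10.49 against 8.48, 7.22 and 7.73 (2.63 ± 0.46, adjusted p = 0.000541). Its relative Foxf2 stood at 8.67, 8.53 and 8.62 against 6.64, 5.45 and 6.21 (2.51 ± 0.39, adjusted p = 0.000169). Maxilla array 2 was the lowest of the 6 in both. Ptch1, the receptor and pathway target, differed by 0.75 ± 0.22, adjusted p = 0.0206, a call lost without mandible array 1 or 2 or maxilla array 2. Foxd2 was higher in the maxilla (-0.96 ± 0.27, adjusted p = 0.0158) and was lost without mandible array 3 or maxilla array 1 or 2. The ligand Shh did not pass (11.49, 11.52 and 11.81 against 9.91, 8.96 and 10.28, 1.9 ± 0.68, adjusted p = 0.0617).

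Wnt ligands and antagonists had 6 of 23 higher in the mandible and 2 in the maxilla (median -0.02). The count in the maxilla was 1 without any 1 of the arrays but maxilla 2, and 4 with array weights, the replicate block or only the 6 arrays. Sfrp4, a secreted Wnt binder, stood at 11.63, 12.28 and 12.11 in the mandible and 8.24, 7.64 and 8.74 in the maxilla, 13.9-fold higher (3.8 ± 0.46, adjusted p = 1.12e-05). Frzb, another secreted binder, was at 11.68, 11.8 and 11.69 against 10.0, 9.57 and 9.68 (1.97 ± 0.41, adjusted p = 0.00216). Dkk2 (1.06 ± 0.13, adjusted p = 1.12e-05) and the ligand Wnt16 (0.73 ± 0.16, adjusted p = 0.00358) were also higher in the mandible, and Dkk4 and Lef1 were higher in the maxilla. The members of the Dkk family thus lay on opposite sides. Of 12 BMP genes 3 were higher in the mandible and 1 in the maxilla (median 0.22), and without maxilla array 3 the counts were 3 and 4. Bmp7, a ligand, was higher in the maxilla (9.73, 9.79 and 9.67 against 10.28, 10.35 and 10.31, -0.58 ± 0.08, adjusted p = 6.54e-05). The antagonist Grem1 (1.16 ± 0.18, adjusted p = 0.000199) and the ligands Gdf5 (1.2 ± 0.27, adjusted p = 0.00386) and Bmp6 (0.92 ± 0.25, adjusted p = 0.0136) were higher in the mandible, with Bmp6 lost without mandible array 2 or maxilla array 2. The FGF list had 5 of 15 higher in the mandible and 0 in the maxilla (median 0.22). Fgf18, a ligand of bone and palate, stood at 9.25, 9.47 and 9.24 against 7.91, 8.13 and 7.32 (1.53 ± 0.18, adjusted p = 9.16e-06), and the response genes Etv4 (0.65 ± 0.11, adjusted p = 0.000474), Spry1 (0.35 ± 0.08, adjusted p = 0.0068) and Spry4 (0.4 ± 0.12, adjusted p = 0.0236) differed less. Spry4 lost its call without mandible array 1 or 3 or maxilla array 1 or 3.

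The proximal ends of the control jaws were compared in the same way. They came from other arrays, with 1588 genes (11.4%) higher in the mandible and 2117 (15.2%) higher in the maxilla there. Of the 1167 genes higher in the distal mandible 689 (59.0%, or 43.4% of the 1588) were also higher in the proximal mandible, and 17 were called the other way. Of the 1319 higher in the distal maxilla 902 (68.4%, or 42.6% of the 2117) were also higher in the proximal maxilla, and 5 were called the other way. The jaw difference itself changed between the ends in 309 genes (2.22%), in 144 (1.03%) toward the mandible distally and in 165 (1.18%) toward the maxilla distally. Leaving out 1 array moved the first count to between 66 and 235 and the second to between 75 and 225. The lowest came without proximal mandible array 2 and without proximal maxilla array 2, and the highest of the first without distal maxilla array 2. Both counts moved by over 1.5 times without any 1 of the distal or proximal mandible arrays, distal maxilla array 3 or proximal maxilla array 1, and the second also without distal maxilla array 1.

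Hand2 had a larger jaw difference at the tip. Its proximal levels (mean ± SD, n = 3) were 9.68 ± 0.11 and 7.04 ± 0.42 in the mandible and maxilla, a difference of 2.64, and the distal difference exceeded that by 4.3 ± 0.51, adjusted p = 0.000138. Pitx1 differed by 1.58 proximally, and the distal difference exceeded that by 1.25 ± 0.27, adjusted p = 0.02. The genes with the largest change between the ends toward the distal mandible included several that were higher in the proximal maxilla. Tbx22, a palate gene, was at 6.94 ± 0.48 and 9.58 ± 0.61 proximally and so reversed (4.73 ± 0.75, adjusted p = 0.00264). Isl1, a LIM homeobox gene of the lower jaw epithelium and of neurons (3.95 ± 0.56, adjusted p = 0.000945), Alx1, a frontonasal homeobox gene (3.82 ± 0.5, adjusted p = 0.000337), and Ret, a neuronal receptor (3.55 ± 0.64, adjusted p = 0.0058), did not pass in the distal comparison itself, where they differed by 0.96 ± 0.4, -0.35 ± 0.35 and 1.01 ± 0.45. Their proximal differences were -2.98, -4.17 and -2.53.

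The 5 largest changes toward the distal maxilla included Hrnr and Crct1, genes of the outer skin, whereas 2 of 21 tested oral and skin members passed in that direction. Hrnr, a cornified envelope protein, stood at 3.73, 4.02 and 4.11 in the distal mandible and 9.67, 6.27 and 9.88 in the distal maxilla, with array 2 at background, and at 3.79 ± 0.05 and 3.84 ± 0.1 in the proximal jaws. The change between the ends was -4.6 ± 0.78, adjusted p = 0.00378. Serpinb2 was near background in both proximal jaws (4.19 ± 0.09 and 4.23 ± 0.02), a change of -4.09 ± 0.35, adjusted p = 2.67e-06. Crct1, a gene of the cornified layer (-4.03 ± 0.71, adjusted p = 0.00523), Dynap (-3.85 ± 0.66, adjusted p = 0.00398) and Stfa3, a stefin of skin and myeloid cells (-3.68 ± 0.75, adjusted p = 0.0133), had the same direction. Stfa3 was above the filter level in every group (7.75 ± 0.21 and 7.77 ± 0.78 proximally). Nr2f1 (-2.28 ± 0.48, adjusted p = 0.0157), Irx3 (-1.19 ± 0.21, adjusted p = 0.00596), Irx5 (-1.43 ± 0.25, adjusted p = 0.00475), Tfap2b (-2.2 ± 0.37, adjusted p = 0.00378) and Pax7 (-2.54 ± 0.52, adjusted p = 0.013) were more maxillary at the tip. For Nr2f1 the proximal levels were 11.16 ± 0.11 and 11.45 ± 0.31, high in both jaws. Of the muscle list 23 of 31 were higher in the proximal mandible (median 1.89), and 0 passed the test of the change between the ends. Of the cilia list 14 were higher in the proximal maxilla (median -1.53), and 0 passed that test. Olfactory genes had 15 of 17 higher in the proximal maxilla (median -1.87), neuron genes 8 of 10 (-3.72) and nasal lining genes 6 of 11 (-1.21). In the proximal mandible 9 of 12 bone genes (median 1.93) and 7 of 10 mandibular identity genes (1.35) were higher. Except for nasal lining, these medians were larger in size than the distal ones, so these list differences were not particular to the tip.

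Distal ends of the mutants were compared in the same way. In them 420 genes (3.01%) were higher in the mandible and 945 (6.78%) in the maxilla. Of the 1167 genes higher in the control mandible 171 (14.7%, or 40.7% of the 420) were also higher in the mutant mandible, and of the 1319 higher in the control maxilla 467 (35.4%, or 49.4% of the 945) were also higher in the mutant maxilla. The jaw difference changed between control and mutant in 461 genes (3.31%), in 236 (1.69%) toward the control mandible and in 225 (1.61%) toward the control maxilla. Leaving out 1 array moved these counts to between 89 and 292 and to between 99 and 297, with the lowest without mutant mandible array 2 and without control mandible array 3. Both moved by over 1.5 times without any 1 of the control mandible arrays, control maxilla array 3, mutant mandible array 2 or 3 or mutant maxilla array 1. Mutant distal maxilla array 3 correlated slightly more with the control distal maxilla (mean r 0.9878) than with its own group (0.9867).

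Jaw identity genes divided. Hand2 kept its difference in the mutants, at 13.04 ± 0.06 and 6.21 ± 0.86 in the mandible and maxilla (mean ± SD, n = 3), and the test of the change gave 0.12 ± 0.51, adjusted p = 0.95. Pitx1 also differed in the mutants (2.04, adjusted p = 3.36e-06), with a change of 0.79 ± 0.27, adjusted p = 0.127. Dlx5 (-0.2 in the mutants) and Dlx6os1 (-1.07) changed, by 0.91 ± 0.25, adjusted p = 0.0489 and by 2.26 ± 0.36, adjusted p = 0.00181. Dlx6os1 was higher in the mutant maxilla (adjusted p = 0.0103). On the upper jaw side Nr2f1 was still higher in the mutant maxilla (-2.99, adjusted p = 1.99e-05), and Irx3 (-1.18 ± 0.21, adjusted p = 0.0042) and Tfap2b (-2.43 ± 0.37, adjusted p = 0.00134) had a larger difference in the controls.

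The muscle list had 0 of 31 members called in the mutant jaws (median 1.01 against 3.48 in controls), and 7 passed the test of the change. Myh8 was at 5.75 ± 0.81 and 4.94 ± 0.91 in the mutant mandible and maxilla, a change of 4.62 ± 1.04, adjusted p = 0.0191. Ttn was at 7.24 ± 1.2 and 6.21 ± 1.4 (4.46 ± 1.1, adjusted p = 0.0309). Ldb3, a Z-disc protein (4.13 ± 0.86, adjusted p = 0.0117), Tceal7 (4.07 ± 0.93, adjusted p = 0.0215) and Tnnc2 (4.04 ± 1.06, adjusted p = 0.0415) made up the 5 largest. In all of these the mutant mandible lay below the control mandible. Thbs4 of tendon changed by 3.6 ± 0.53, adjusted p = 0.00109. Of the osteoclast list 4 of 9 passed the test of the change, among them Atp6v0d2 (1.73 ± 0.34, adjusted p = 0.00825). The osteoclast median was 0.19 in mutants against 1.2 in controls. Of the bone list 0 of 12 passed that test, but 0 were called in the mutant jaws either. The bone median was -0.33 in mutants against 1.16 in controls. The median change was 1.76 for bone and 1.04 for osteoclast genes.

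On the maxilla side Bpifa1 was at 4.71 ± 0.08 and 8.47 ± 1.5 in the mutants, still higher in the maxilla (-3.76, adjusted p = 0.000394) but with a smaller difference (-4.04 ± 0.82, adjusted p = 0.00995). Of the cilia list 2 of 16 were higher in the mutant maxilla (median -0.31), and 7 passed the test of the change, among them Deup1 (5.44 ± 0.16 and 5.92 ± 0.37, change -3.37 ± 0.66, adjusted p = 0.00779). Dkk4 reversed, from higher in the control maxilla to higher in the mutant mandible (1.63, adjusted p = 0.00206), a change of -3.83 ± 0.43, adjusted p = 0.000431. Dynap (-3.5 ± 0.66, adjusted p = 0.00535) and Stfa3 (-3.36 ± 0.75, adjusted p = 0.0192) were the remaining genes of the 5 largest. Both were high in the mutant mandible as well as the maxilla, at 8.53 ± 0.3 and 8.43 ± 0.4 and at 10.1 ± 0.4 and 10.45 ± 1.5. Lhx2 (-0.68 ± 0.76, adjusted p = 0.749), Krt8 (0.61 ± 0.51, adjusted p = 0.649) and Otx2 (0.07 ± 1.35, adjusted p = 0.99) did not pass the test of the change, and each was higher in the mutant maxilla too.

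**Figure D5:**
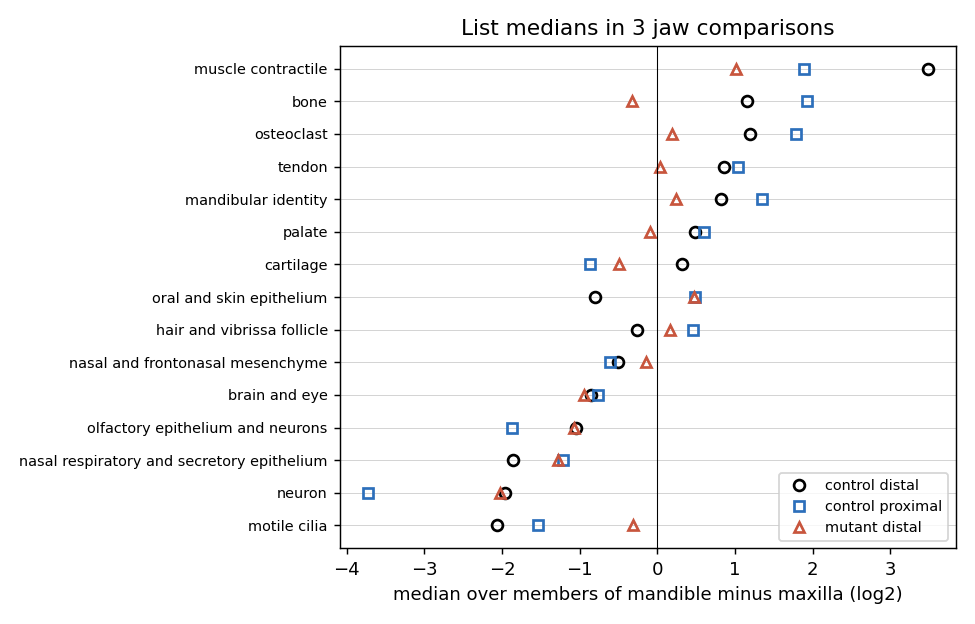
Median over the tested members of 15 gene lists of mandible minus maxilla (log2, x axis) in the control distal (black circles), control proximal (blue squares) and mutant distal ends (red triangles), each from its own 6 arrays. The muscle median was 3.48, 1.89 and 1.01 in that order, and the cilia median -2.06, -1.53 and -0.31. The medians of cartilage, of oral and skin epithelium and of hair and vibrissa follicle had the opposite sign in the other 2 comparisons. The distal cartilage median was -0.25 without maxilla array 3, the sign of the other 2.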

How the data were processed

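RNA of 24 samples was hybridised to single-colour mouse arrays, 5 µg of total RNA each, per the labels. The authors deposited RMA-normalised signals, per the submitters' processing notes, which name no version. Values ran from 3.29 to 14.86, from which the deposited scale was taken as log2. There were 45101 probe sets, without detection calls. The number of arrays, 3 per group, limits the precision.

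Of the probe sets 34945 had exactly 1 gene symbol in the array annotation, 932 several and 9160 none, and 64 were controls. A RefSeq gene table (GRCm38.p6) matched 34741 of them. Where a gene had several probe sets, the one with the highest mean was used (18193 genes). A gene was tested if it exceeded an array's 40th percentile in 3 or more of the 24 arrays (13942). A model with 1 mean for each of 8 groups was fitted with limma 3.58.1 (R 4.3.3, eBayes with trend, 16 residual degrees of freedom), with Benjamini-Hochberg adjustment over all genes of each comparison. It was tested on simulated data: 85% of changes of 1 and 100% of changes of 2 (log2) were recovered among 13942 genes for the distal control comparison, with 10 false calls. There were 5 comparisons: the jaws in 3 settings and the 2 changes of the jaw difference. Tables were made in Python 3.11.15 with numpy 2.4.6 and pandas 2.3.3, and plots with matplotlib 3.10.9.

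The members, the 30 gene lists and the tests were chosen with earlier results of these data known. Named are the 12 genes with the largest difference in each direction that passed and did not overlap between jaws, without unnamed transcripts, Y-linked genes and Xist, the markers Hand2, Pitx1, Bpifa1, Lhx2 and Myh3, up to 5 members of each list by the moderated statistic, all members of the mandibular identity, endothelin and upper jaw lists, and 5 genes in each direction for each change of the jaw difference. Other genes are named as chosen later or as the members a count refers to, and a few list members that did not pass (Myf5, Myod1, Omp, Col2a1, Acan, Dnah11, Tmem212, Nefl, Nefm, Hoxd1) were named after their values were seen. Genes with no probe set of 1 symbol were not analysed here.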

Additional observations from a re-analysis of the deposited data

Results flagged for a closer look

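These genes had a jaw difference that itself differed between 2 groups in the limma test of the difference (adjusted p under 0.05), and they are the 5 largest in each direction.

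Between the ends of the control jaws, the distal minus proximal jaw difference was 4.73 for Tbx22, 4.30 for Hand2, 3.95 for Isl1, 3.82 for Alx1 and 3.55 for Ret. On the other side it was -4.60 for Hrnr, -4.09 for Serpinb2, -4.03 for Crct1, -3.85 for Dynap and -3.68 for Stfa3.

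Between genotypes at the distal ends, the control minus mutant jaw difference was 4.62 for Myh8, 4.46 for Ttn, 4.13 for Ldb3, 4.07 for Tceal7 and 4.04 for Tnnc2. On the other side it was -4.04 for Bpifa1, -3.83 for Dkk4, -3.50 for Dynap, -3.37 for Deup1 and -3.36 for Stfa3. The part of muscle, cilia or skin cell content in these changes was not tested.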

How the results depend on the processing

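The alternatives tried for the distal comparison reversed no named gene that had passed, and 106 of 136 such genes passed in every setting that tested them. The filter at the 60th percentile tested 128 of the 136, and the mean of all probe sets tested 132. Quantile normalization, no filter, array weights, the replicate block and no mean-variance trend lost none of the 136. The mean of all probe sets lost Lef1, Lhx6, Mbp and Rdh10, and a fit to the 6 arrays alone lost Alas2, Comp, Kdr and Rdh10. With that fit and the replicate number as a block, an alternative chosen after seeing the data, Alas2, Kdr, Rdh10 and Spry4 were lost. The cause was not tested.

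Requiring a size of at least 1 left 253 and 447 genes (mandible, maxilla), 80 and 91 for the change between ends, and 130 and 124 for the change with genotype. Array weights gave 2303 genes higher in the maxilla, 445 and 430 for the change between ends, and 571 and 556 with genotype. Only the arrays compared gave 345 and 280 for the change between ends. Leaving out 1 array gave 667 to 1101 genes higher in the mandible, 932 to 1357 in the maxilla, 66 to 235 and 75 to 225 for the change between ends, and 89 to 292 and 99 to 297 with genotype.

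Residuals of same-numbered distal mandible and maxilla arrays correlated at 0.33, 0.06 and 0, and those of differently numbered arrays at -0.26 to 0.13. With 3 arrays per group this cannot decide whether same-numbered arrays are pairs. The numbers were not used as pairs in the main analysis. The Y-linked Kdm5d, however, was high or low together in same-numbered distal arrays of both jaws, in controls and mutants, and whether those arrays share embryos was not tested. Of the 60 counts of list members (30 lists, 2 directions) 28 moved by over 1.5 times in some setting, and 20 of those were counts under 3. With the replicate block 1698 and 1753 genes were called in the distal comparison, 378 and 316 for the change between ends, and 629 and 423 with genotype.

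Genes that had not passed changed sign as follows, in each case without passing (Aldh1a2 and Aldh1a3 were not included). With array weights Acan was at -0.16, Gnaq at -0.06, Hbb-y at -0.10, Jag1 at 0.07 and Krt5 at 0.05, with quantile normalization Dnah11 at 0.04, and with the mean of probe sets Ednrb at 0.02 and Jag1 at 0.04. Leaving out 1 array gave -0.37 to 1.0 for Acan, -0.08 to 1.17 for Col2a1, -0.13 to 0.02 for Dnah11, -0.1 to 0.01 for Ednrb, -0.08 to 0.13 for Gnaq, -0.08 to 0.21 for Hand1, -0.14 to 0.33 for Hbb-y, -0.09 to 0.1 for Jag1, -0.18 to 0.43 for Krt14, -0.4 to 0.13 for Krt5 and -0.38 to 0.05 for Trp63.

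Values near or under the filter level give only lower limits to a difference, and 3 arrays per group limit what small differences can pass.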
